A study of Mus musculus with 8 samples.

Results

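Enzymes that make, salvage or clear the deoxynucleotides used for DNA synthesis were followed in haematopoietic stem cells (HSCs) of old and young mice. They are Rrm1, Rrm2, Rrm2b, Tk1, Tyms, Dut, Dctpp1, Dck and Samhd1, chosen by symbol, and all 9 were found among the 19909 genes of the deposited tables. All mice were homozygous for a GFP-LC3 reporter (Gfplc3/Gfplc3), whose green signal falls as autophagy turns LC3 over, and cells were taken from bone marrow at steady state. The AThi group held 3 libraries of HSCs with the lowest 33% of GFP signal, from mice older than 24 months. The ATlo group held 3 libraries from the highest 33%, sorted from those same old mice, and the young group held 2 libraries of unfractionated HSCs from mice aged 8 to 12 weeks. Young cells were not gated on GFP, so age and gate cannot be told apart in either comparison with young.

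Deoxynucleotides are made by reducing ribonucleotides, a step carried out by ribonucleotide reductase, or by phosphorylating salvaged deoxynucleosides. The reductase joins a large subunit, Rrm1, with 1 of 2 alternative small subunits: Rrm2, which is made for S phase and destroyed afterwards, or Rrm2b, which is induced by p53 and supplies DNA repair and mitochondrial DNA in cells that are not replicating. Other enzymes keep uracil out of DNA, clear unwanted triphosphates or, in the case of Samhd1, degrade deoxynucleotides outside S phase. Most HSCs are out of the cell cycle. In bulk RNA, fewer replicating cells and less mRNA per cell cannot be told apart.

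Library totals were 33960216 to 45830216 reads in AThi, 54512285 to 61341946 in ATlo and 44021141 to 45590508 in young. Each column carries a tag whose meaning the labels do not give, and AThi and ATlo columns of the same tag were taken as the fractions of 1 old mouse. The 3 libraries whose tag ends in 12 stood apart from the others. Their summed level of 5 B cell genes was 23877 normalized counts in AThi O12, 10117 in ATlo O12 and 10767 in young D12, against 654 to 992 in the other 5 libraries. Young D11 had 97743 normalized counts of Xist, the X inactivation RNA, and 4.16 of the Y-linked Ddx3y, against 32.5 to 5809.5 and 1918 to 3219 in the other 7 libraries. The 10 HSC markers were all measured, and their summed level was 113999 to 139861 in AThi, 84846 to 106768 in ATlo and 116015 to 117666 in young. Of these, 3 were called higher in AThi than in ATlo (Procr, Mecom and Hlf) and 0 lower. Of 7 T and NK cell markers, 3 were measured, and their sum was 1895 to 3124 in AThi, 1369 to 1479 in ATlo and 1091 to 1223 in young. Klrb1c alone of these was called higher in AThi than in ATlo, while Nkg7 had 243 to 392 normalized counts in AThi, 394 to 533 in ATlo and 345 to 448 in young, and Cd4 had 2.20 to 295 in AThi, 0.794 to 225 in ATlo and 290.4 to 503 in young. The 3 multipotent progenitor markers summed to 2916 to 3619 in AThi, 3696 to 5181 in ATlo and 5352 to 7020.4 in young, with no overlap. None of the 3 was called between AThi and ATlo, and Cd48 had a positive log2 fold change (0.30). Megakaryocyte markers summed to 9542 to 11310.2 in AThi, 9649 to 13828 in ATlo and 3700.3 to 4059 in young, and granulocyte markers to 5390.0 to 6615 in AThi, 4079 to 6457 in ATlo and 2611 to 2751 in young. The cycling markers Mki67 and Top2a summed to 28512 to 36100 in AThi, 74646 to 83438 in ATlo and 40874 to 53185 in young, and both were called lower in AThi than in ATlo. The part these marker levels have in the results was not tested.

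The promoters of the reductase subunits Rrm1 and Rrm2 and of Dctpp1 are shown because they alone, among the 8 members with a promoter entry in the RefSeq table (GRCm38.p6), hold a CCAAT box, the site of the factor NF-Y in many promoters of cycling cells. Each window runs from 250 bases before to 50 bases after the annotated start, 5′ to 3′ on the gene's strand, with CCAAT or its reverse complement ATTGG in capitals.
Rrm1, chr7:102441445-102441744, plus strand: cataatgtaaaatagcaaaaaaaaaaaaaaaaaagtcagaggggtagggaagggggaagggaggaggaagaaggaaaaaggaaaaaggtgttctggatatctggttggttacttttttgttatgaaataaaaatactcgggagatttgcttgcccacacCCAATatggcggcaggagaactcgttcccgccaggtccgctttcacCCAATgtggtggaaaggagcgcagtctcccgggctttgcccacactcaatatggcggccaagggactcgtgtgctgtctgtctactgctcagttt
Rrm2, chr12:24708004-24708303, plus strand: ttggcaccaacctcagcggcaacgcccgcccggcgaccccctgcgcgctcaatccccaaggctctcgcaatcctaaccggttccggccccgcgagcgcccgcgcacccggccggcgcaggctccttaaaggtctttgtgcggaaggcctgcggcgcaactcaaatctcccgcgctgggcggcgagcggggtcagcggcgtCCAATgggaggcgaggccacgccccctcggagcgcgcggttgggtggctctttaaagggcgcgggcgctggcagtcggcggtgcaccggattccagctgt
Dctpp1, chr7:127260618-127260917, minus strand: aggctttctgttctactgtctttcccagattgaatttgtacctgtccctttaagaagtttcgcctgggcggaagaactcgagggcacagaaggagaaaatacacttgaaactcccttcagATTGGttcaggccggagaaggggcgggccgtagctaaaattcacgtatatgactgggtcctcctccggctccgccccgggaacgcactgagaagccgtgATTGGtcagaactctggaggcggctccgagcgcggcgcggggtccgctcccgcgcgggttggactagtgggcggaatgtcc
Rrm1 and Dctpp1 each held 2 boxes and Rrm2 held 1. CCAAT on either strand was present in 3 of 8 member windows, and in 37.4% of all 32851 windows of this length. None of 4 E2F strings (TTTCCCGC, TTTGGCGC, TTTCGCGC, TTTGCCGC, either strand) was found in the 8 windows, against 2.26% of all windows. The cell cycle homology strings TTTGAA and TTCGAA were found on either strand in 1 of 8, that of Dck, against 19.2% of all windows, and no CCAAT box overlapped another motif. A match describes the letters of the window and is not evidence of a site in use, and a missing match says only that these letters are not in it.

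Autophagy-high cells of old mice held less mRNA for 7 of the 9 enzymes than autophagy-low cells of those mice. These were the reductase subunits Rrm1 and Rrm2, the thymidylate enzymes Tk1 and Tyms, the dUTPase Dut, the dCTP pyrophosphatase Dctpp1 and the kinase Dck. Their AThi means were between 25.4% and 52.7% of the ATlo mean. Rrm2b and Samhd1 did not pass the test and had higher means in AThi. In the authors' deposited table of DESeq2 Wald tests, 7 of 9 members were lower at an adjusted p below 0.05, against a background of 4.43% of 17908 genes tested. The count of members higher in the authors' deposited table was 0 (1 at an unadjusted p below 0.05, Rrm2b), against 3.47% of genes. The median log2 fold change in the authors' deposited table was -1.17 over the 9 members and 0.02 over all genes tested. On the recovered reads, the edgeR quasi-likelihood test called 6 of the 9 lower, all but Dctpp1 of the 7, against 1.11% of genes, and 0 higher (0 at an unadjusted p below 0.05), against 0.301% of genes. AThi and ATlo libraries did not overlap for 7 members, each lower in AThi, against 11.6% of genes tested that were lower without overlap and 10.7% that were higher.

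**Figure D1:**
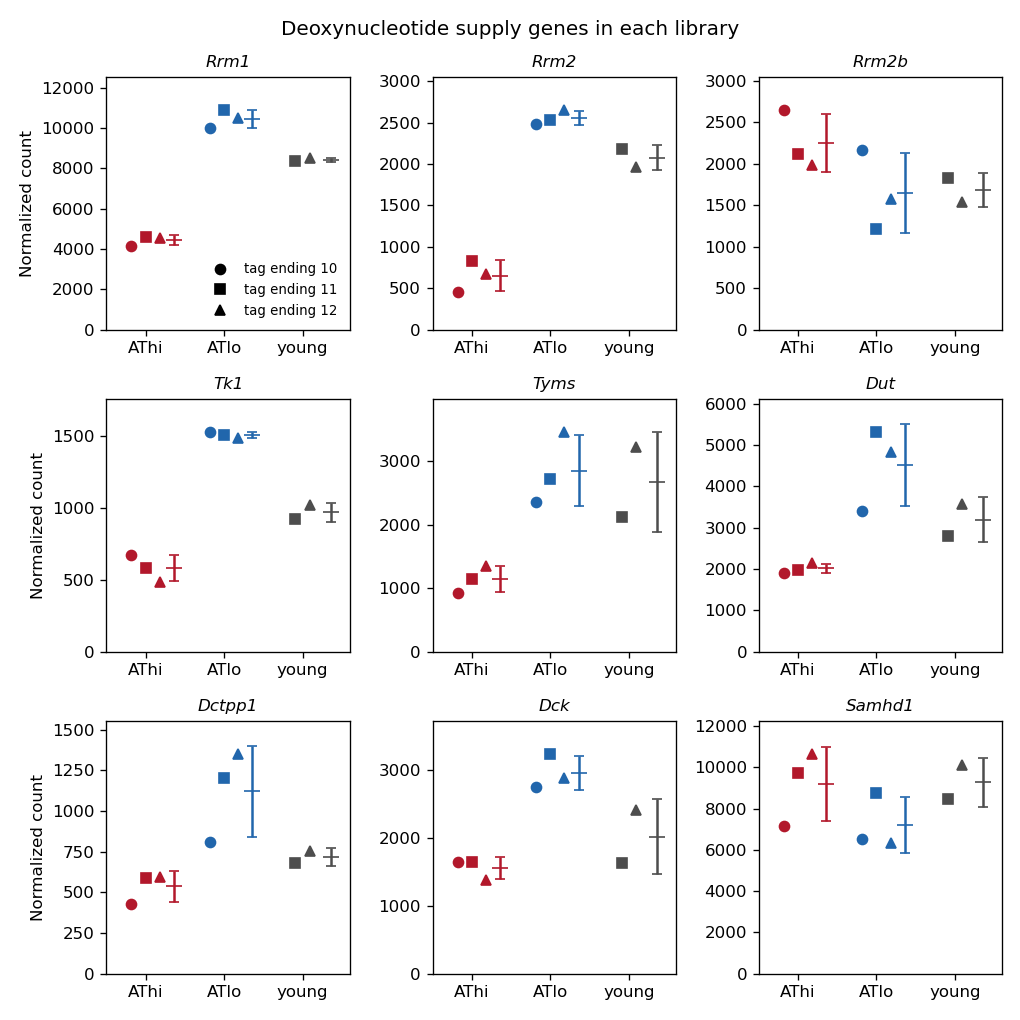
Normalized counts (vertical axes, linear from 0) of the 9 genes in each AThi, ATlo and young library. Each point is a library with its shape giving the end of the column tag, and the bar beside the points is the mean ± SD. AThi points lie below all ATlo points for Rrm1, Rrm2, Tk1, Tyms, Dut, Dctpp1 and Dck, and overlap them for Rrm2b and Samhd1.

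Rrm1, the large subunit that holds the catalytic site (ENSMUSG00000030978, chromosome 7, 102441695 to 102469771, GRCm38.p6), had 4148, 4600.3 and 4562 normalized counts in AThi libraries, 9991, 10879.5 and 10490.4 in ATlo libraries and 8339 and 8488 in young libraries. Its 3 groups stood apart with no overlap, AThi lowest and ATlo highest. Mean levels were 4437 ± 251 across AThi and 10454 ± 445 across ATlo libraries (SD, n = 3 each), and 8413 ± 106 in young (SD, n = 2). The log2 fold change of AThi against ATlo in the authors' deposited table was -1.24 (SE 0.10, adjusted p 8.6e-32), second by p among all genes. The edgeR adjusted p was 0.0028.

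Rrm2, the S phase small subunit that carries the tyrosyl radical (ENSMUSG00000020649, chromosome 12, 24708254 to 24714146), had 457, 828 and 665 normalized counts in AThi libraries, 2479, 2536 and 2652 in ATlo libraries and 2188 and 1968 in young libraries. All AThi libraries lay below all others, and ATlo lay just above young with no overlap. The log2 fold change of AThi against ATlo in the authors' deposited table was -1.97 (SE 0.21, adjusted p 2.4e-17), the furthest from 0 among the 9 members. The mean was 650.0 ± 186 across AThi and 2555 ± 88.1 across ATlo libraries (SD, n = 3 each), so the spread relative to the mean was 28.6% in AThi and 3.45% in ATlo.

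Rrm2b, the p53-inducible small subunit (ENSMUSG00000022292, chromosome 15, 37923952 to 37961119), had 2646, 2123 and 1981 normalized counts in AThi libraries, 2169, 1215 and 1569 in ATlo libraries and 1828 and 1539.7 in young libraries. AThi and ATlo libraries overlapped, and within each pair of the same tag the AThi library was the higher. Its log2 fold change of AThi against ATlo in the authors' deposited table was 0.45 (SE 0.23, adjusted p 0.26). Without ATlo O10, the ATlo library with the most Rrm2b, DESeq2 gave 0.69 with an adjusted p of 0.022. It gave 0.27 without ATlo O11 and 0.32 without AThi O10 (DESeq2 adjusted p 0.63 and 0.61).

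The ratio of Rrm2b to Rrm2 reads within a library does not depend on how libraries are scaled. It was 5.79, 2.56 and 2.98 in AThi libraries, 0.875, 0.479 and 0.592 in ATlo libraries and 0.836 and 0.782 in young libraries. AThi libraries thus held more Rrm2b than Rrm2 reads, and the other 5 libraries fewer. Reads are not corrected for the length of the mRNA, so the ratio compares libraries and not the abundance of the 2 subunits. The ratio of Rrm1 to Rrm2 reads was 5.56 to 9.08 in AThi, 3.96 to 4.29 in ATlo and 3.81 to 4.31 in young.

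**Figure D2:**
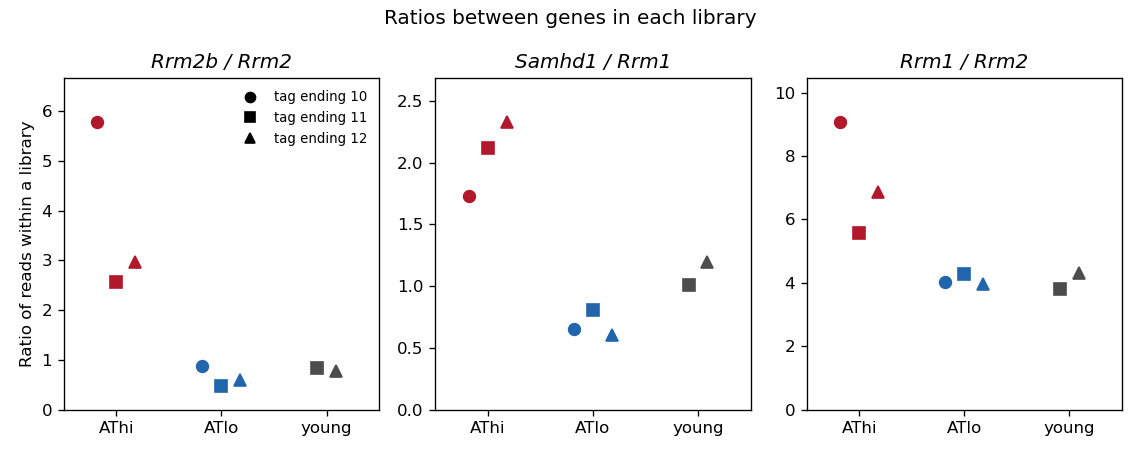
Ratio of reads between pairs of genes within each AThi, ATlo and young library (vertical axes, linear from 0), each point a library. All 3 AThi libraries lie above the other 5 in Rrm2b to Rrm2 (2.56 or more), Samhd1 to Rrm1 (1.73 or more) and Rrm1 to Rrm2 (5.56 or more).

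Thymidylate reaches DNA by salvage through Tk1 or by synthesis through Tyms. Tk1, the cytosolic thymidine kinase (ENSMUSG00000025574, chromosome 11, 117815519 to 117826087), had 670.4, 584 and 488 normalized counts in AThi libraries, 1528, 1505 and 1488 in ATlo libraries and 925 and 1018 in young libraries. The 3 groups did not overlap, and ATlo libraries differed little among themselves (SD 1.34% of the mean). Its log2 fold change of AThi against ATlo in the authors' deposited table was -1.38 (SE 0.18, adjusted p 5.9e-12).

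Tyms, which methylates dUMP to dTMP (ENSMUSG00000025747, chromosome 5, 30038546 to 30073645), had 927, 1151 and 1349.6 normalized counts in AThi libraries, 2361, 2727 and 3459 in ATlo libraries and 2117 and 3227 in young libraries. AThi lay below both other groups, which overlapped. In each group the highest library was the one tagged 12. The log2 fold change of AThi against ATlo in the authors' deposited table was -1.32 (SE 0.23, adjusted p 6.7e-07).

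Dut and Dctpp1 hydrolyse deoxynucleotides that should not enter DNA. Dut, which turns dUTP into the dUMP that Tyms uses (ENSMUSG00000027203, chromosome 2, 125247248 to 125259049), had 1907, 1983 and 2137 normalized counts in AThi libraries, 3408, 5309 and 4823 in ATlo libraries and 2806 and 3581 in young libraries. AThi libraries lay below all others, and ATlo O10 lay within the range of young. For AThi against ATlo the authors' deposited table gave a log2 fold change of -1.17 (SE 0.19, adjusted p 7.3e-08).

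Dctpp1, a pyrophosphatase of dCTP and its modified forms (ENSMUSG00000042462, chromosome 7, 127256959 to 127260667), had 427, 590.2 and 594 normalized counts in AThi libraries, 808, 1203 and 1349 in ATlo libraries and 677 and 754 in young libraries. The 3 groups did not overlap, with young between the old groups. Its log2 fold change of AThi against ATlo in the authors' deposited table was -1.06 (SE 0.25, adjusted p 0.0012), while the edgeR adjusted p was 0.072. Without the 3 libraries tagged 12, DESeq2 gave -0.98 with an adjusted p of 0.098.

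Dck, the kinase that salvages deoxycytidine and the purine deoxynucleosides (ENSMUSG00000029366, chromosome 5, 88765013 to 88783277), had 1645, 1648 and 1371 normalized counts in AThi libraries, 2744, 3231 and 2876 in ATlo libraries and 1625 and 2403 in young libraries. AThi lay below ATlo and overlapped young. For AThi against ATlo it had -0.92 on the log2 scale in the authors' deposited table (SE 0.18, adjusted p 3.3e-05), the smallest in size among the 7 lower members.

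Samhd1, a triphosphohydrolase that breaks deoxynucleotides down (ENSMUSG00000027639, chromosome 2, 157097534 to 157135096), had 7166, 9736 and 10641.9 normalized counts in AThi libraries, 6519, 8773 and 6342 in ATlo libraries and 8444 and 10124 in young libraries. The 3 groups overlapped. Its log2 fold change of AThi against ATlo in the authors' deposited table was 0.35 (SE 0.18, adjusted p 0.28), with a 95% interval of -0.01 to 0.71. The ratio of Samhd1 to Rrm1 reads was 1.73 to 2.33 in AThi, 0.605 to 0.806 in ATlo and 1.01 to 1.19 in young libraries. The groups did not overlap in this ratio, and they did not overlap for Rrm1 alone. The share of all genes whose ratio to Rrm1 did not overlap was not counted.

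Per the labels' protocols the old fractions were paired, and differences within a pair of the same tag had 1 sign for every member. For the 7 members whose AThi and ATlo libraries did not overlap, any pairing gives 1 sign. Only Rrm2b and Samhd1 could have differed, and the share of all genes with 1 sign was not counted. AThi minus ATlo, as log2(normalized count + 1), was -1.27, -1.24 and -1.20 for Rrm1 in the pairs tagged O10, O11 and O12. For Rrm2 it was -2.44, -1.61 and -1.99, and for Dck -0.74, -0.97 and -1.07. For Rrm2b it was 0.29, 0.80 and 0.34, and for Samhd1 0.14, 0.15 and 0.75. Rrm1 thus differed by almost the same amount in each pair (SD 0.03), while Rrm2 varied more between pairs (SD 0.41).

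Against young cells, fewer of the enzymes passed the test. Rrm1, Rrm2, Tk1, Tyms and Dut fell in AThi, to between 31.3% and 62.9% of the young mean. Dctpp1, Dck, Rrm2b and Samhd1 did not pass. In the authors' deposited table, 5 of 9 members were lower in AThi than in young, against 1.91% of 19064 genes tested. The count of members higher in the authors' deposited table was 0 (0 at an unadjusted p below 0.05), against 3.13% of genes. The edgeR test called 2 lower, Rrm1 and Rrm2, against 0.362% of genes, and 0 higher (0 at an unadjusted p below 0.05), against 0.844% of genes. Against young, the authors' deposited table gave log2 values of -0.92 for Rrm1 (SE 0.11, adjusted p 3e-14) and -1.67 for Rrm2 (SE 0.24, adjusted p 3.6e-10). AThi and young libraries did not overlap for 7 members. Of these 6 were lower in AThi, against 14.2% of genes tested, and 1, Rrm2b, was higher, against 13.9%.

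The other 3 calls against young were lost by edgeR and when some libraries were left out. Tyms had a log2 fold change of -1.23 in the authors' deposited table (SE 0.25, adjusted p 9.2e-05), with an edgeR adjusted p of 0.052, and -0.89 without young D12 by DESeq2 (adjusted p 0.077). Tk1 had -0.74 in the authors' deposited table (SE 0.20, adjusted p 0.0073), with an edgeR adjusted p of 0.12. By DESeq2 Tk1 was at -0.81 without young D11 and -0.67 without young D12 (adjusted p 0.075 and 0.23). Dut had -0.67 in the authors' deposited table (SE 0.21, adjusted p 0.032), with an edgeR adjusted p of 0.19. By DESeq2 Dut was at -0.64 without AThi O10, -0.66 without AThi O11 and -0.48 without young D12 (adjusted p 0.12, 0.093 and 0.52). Without young D12 the count of members called was 2, Rrm1 and Rrm2, and without the 3 libraries tagged 12 it was 3, Rrm1, Rrm2 and Tyms. There Tk1 was at -0.56 and Dut at -0.52 (DESeq2 adjusted p 0.61 and 0.53).

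Members that did not pass in AThi against young had 95% intervals that included 0. Dctpp1 had a log2 fold change of -0.41 in the authors' deposited table, with a 95% interval of -0.97 to 0.14. Dck had -0.37 in the authors' deposited table, with an interval of -0.78 to 0.03, and 0.02 by DESeq2 without the 3 libraries tagged 12. Rrm2b had 0.42 in the authors' deposited table, with an interval of -0.08 to 0.92, and all 3 AThi libraries lay above both young libraries. Samhd1 had -0.02 in the authors' deposited table, with an interval of -0.42 to 0.39.

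Autophagy-low cells of old mice had means above the young mean for 7 members, and below it for Rrm2b and Samhd1. Tk1 was the one called, averaging 1507 ± 20.2 normalized counts across ATlo libraries (SD, n = 3) and 971 ± 66.1 across young ones (SD, n = 2). In the authors' deposited table, 1 of 9 members was higher in ATlo than in young, against 2.37% of 18678 genes tested. The count of members lower in the authors' deposited table was 0 (0 at an unadjusted p below 0.05), against 1.98% of genes. At an unadjusted p below 0.05, 5 members were higher. The shares of genes set beside calls in all 3 comparisons are at an adjusted p below 0.05, and none was counted at an unadjusted p. The log2 fold change of Tk1 in the authors' deposited table was 0.63 (SE 0.20, adjusted p 0.037). The edgeR test called 0 higher (5 at an unadjusted p below 0.05) and 0 lower (0 at an unadjusted p below 0.05), against 0.467% and 0.186% of genes, with an adjusted p of 0.23 for Tk1. The Tk1 call was lost without any one of AThi O11, the 3 ATlo or the 2 young libraries (DESeq2 log2 fold change 0.57 to 0.71, adjusted p 0.067 to 0.40). Without ATlo O10, Dut and Dctpp1 were called higher instead (0.67 and 0.84, DESeq2 adjusted p 0.012 and 0.048). Without young D12 it was Dck (0.86, DESeq2 adjusted p 0.0064), and likewise without the 3 libraries tagged 12 (0.88, DESeq2 adjusted p 0.038). ATlo and young libraries did not overlap for 5 members, each higher in ATlo, against 16.1% of genes higher and 15.2% lower without overlap.

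**Figure D3:**
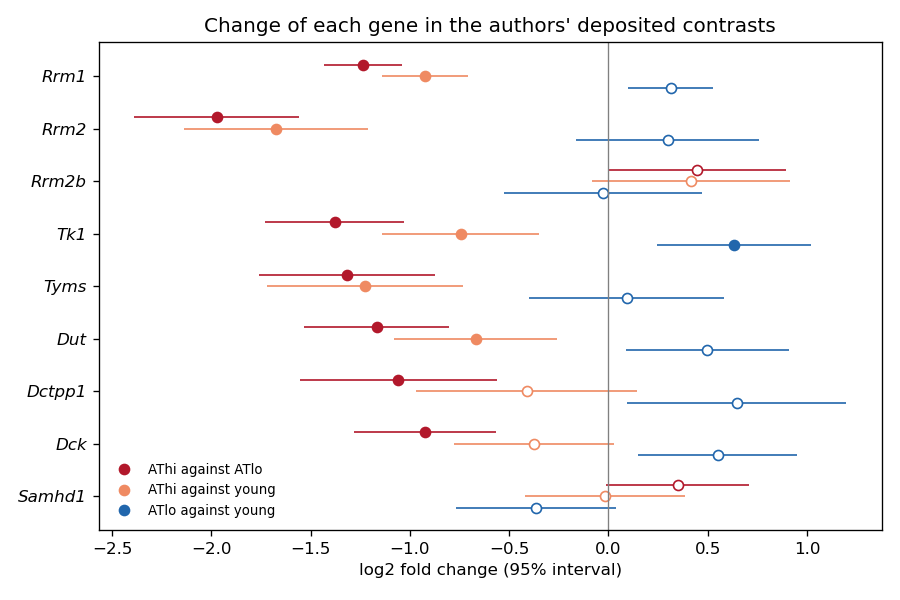
Log2 fold change (horizontal axis) of each gene in the 3 comparisons of the authors' deposited tables, with bars for the 95% interval. Filled points passed an adjusted p of 0.05: 7 genes in AThi against ATlo, 5 in AThi against young and 1, Tk1, in ATlo against young.

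In all, mean levels ran from AThi through young to ATlo for 7 members, Rrm1, Rrm2, Tk1, Tyms, Dut, Dctpp1 and Dck. Young and ATlo libraries overlapped for Tyms and Dut of these, and AThi and young libraries for Dck. Rrm2b had the opposite order, and Samhd1 ran from ATlo through AThi to young, with overlapping libraries. The comparisons with young share the same 2 young libraries, so they are not independent of each other.

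Correlations over the 8 libraries largely carry the group difference that the 7 lower genes share, and do not show that they vary together beyond it. The 21 correlations among the 7, of log2(normalized count + 1), ran from 0.78 to 0.98 with a median of 0.89. Rrm2b correlated with the 7 at -0.85 to -0.57 and Samhd1 at -0.61 to -0.21. These 8 points fall into 3 groups, and 6 of them were taken as pairs from 3 old mice. Among 11022 named genes with a base mean of at least 100, those most like Rrm2 included Atad5 and Cdca7 (Pearson r 0.99 and 0.99 over the 8 libraries). Those most like Rrm2b were Pcdhga5, Phf21a and Herc1 (r 0.98, 0.95 and 0.95), and those most like Dck were Ddx39b, Siva1 and H2ax (r 0.98, 0.97 and 0.97). Those most like Samhd1 were Wdr44, Nod1 and Zfhx2os (r 0.93 each).

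Set against the proliferation marker Mki67, all members but Rrm2b, Samhd1 and Dctpp1 overlapped between the old groups. Mki67 was itself called lower in AThi than in ATlo (log2 fold change -1.42 in the authors' deposited table). A gene with equal levels in both would thus be higher in AThi on this scale. The share of all genes without overlap on this scale was not counted, so the number of members without overlap cannot be judged. Rrm1 had 293, 317 and 224 reads per 1000 Mki67 reads in AThi libraries, 248, 254 and 219.8 in ATlo libraries and 496 and 367 in young libraries, so AThi and ATlo overlapped. Rrm2 had 32.3, 57.1 and 32.6 per 1000 in AThi libraries, 61.6, 59.3 and 55.5 in ATlo libraries and 130.0 and 85.0 in young libraries. AThi and ATlo overlapped here too, through AThi O11, and young libraries were above both old groups for Rrm1 and Rrm2. Rrm2b had 187, 146 and 97.2 per 1000 in AThi libraries, 53.9, 28.4 and 32.9 in ATlo libraries and 109 and 66.5 in young libraries. All AThi libraries lay above all ATlo libraries for Rrm2b, and AThi overlapped young. AThi also lay above ATlo for Samhd1, with 507 to 671 per 1000 in AThi and 133 to 205 in ATlo libraries. The same held for Dctpp1, with 29.1 to 40.7 in AThi and 20.1 to 28.3 in ATlo libraries, although its normalized counts were lower in AThi.

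Among other lists of nucleotide supply, between 1 and 7 genes of a list were lower in AThi than in ATlo, and most listed genes did not pass the test. Of all genes tested, 4.43% were lower and 3.47% higher in the authors' deposited table, and 1.11% lower and 0.301% higher by edgeR. Of 17 purine synthesis genes 7 were lower, with a median log2 fold change of -0.30 in the authors' deposited table, and edgeR called 2 of them. Paics, which carries out a pair of steps of purine ring synthesis, averaged 15068 ± 803 normalized counts across AThi and 22204 ± 277 across ATlo libraries (SD, n = 3 each), and the authors' deposited table gave a log2 value of -0.56 (SE 0.10). Prps1, which makes the ribose donor of the pathway, had a log2 value of -0.70 (SE 0.16) and the salvage enzyme Hprt one of -0.51 (SE 0.11) in the authors' deposited table. Of these, edgeR called Paics (adjusted p 0.018) and not Prps1 and Hprt (adjusted p 0.056 and 0.055).

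Of 11 pyrimidine synthesis genes 5 were lower, with a median log2 fold change of -0.51 in the authors' deposited table, and the edgeR adjusted p of the 4 named here was 0.088 to 0.12. They included the nucleoside diphosphate kinases Nme1 (-0.78, SE 0.20) and Nme2 (-0.51, SE 0.14), Cad, which begins pyrimidine synthesis (-0.73, SE 0.21), and Uck2 (-0.55, SE 0.16), all log2 values from the authors' deposited table. Of 13 folate cycle genes 5 were lower, and 3 by edgeR, with a median log2 fold change of -0.22 in the authors' deposited table. Mthfd1 (-0.99, SE 0.20), the mitochondrial Mthfd1l (-0.97, SE 0.20) and Shmt1 (-1.02, SE 0.26) were among them in the authors' deposited table, of which edgeR did not call Shmt1 (adjusted p 0.092).

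Of 13 genes of other deoxynucleoside kinases and mitochondrial supply, 1 was lower and 1 higher, against 4.43% and 3.47% of all genes tested. Dtymk, which phosphorylates the dTMP made by Tk1 and Tyms, averaged 1156 ± 48.3 normalized counts across AThi and 2544 ± 205 across ATlo libraries (SD, n = 3 each). For it the authors' deposited table gave -1.14 (SE 0.13) on the log2 scale. The mitochondrial pyrimidine nucleotide carrier Slc25a36 rose by 0.49 (SE 0.13) in the authors' deposited table, with an edgeR adjusted p of 0.089. Of 19 measured genes of nucleotide breakdown and pool cleaning 3 were lower. Ung, the glycosylase that removes uracil from DNA, averaged 291 ± 63.7 across AThi and 1438 ± 109 across ATlo libraries (SD, n = 3 each), and the authors' deposited table gave -2.30 (SE 0.23) on the log2 scale. The other calls, Dnph1 and Dctd, were not made by edgeR (adjusted p 0.12 and 0.17). Of 18 reductase partners and p53 response genes 3 were lower and 1 higher. The checkpoint kinase Chek1 (-1.93, SE 0.23) and thioredoxin Txn1, an electron donor of the reductase (-0.63, SE 0.12), were called by both tests, with log2 fold changes from the authors' deposited table. Ccnf, which targets Rrm2 for destruction in human cells, fell by 1.24 (SE 0.37) and the p53 target Trp53inp1 rose by 0.61 (SE 0.17) in the authors' deposited table, with edgeR adjusted p of 0.16 and 0.098.

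Against young, most genes of the same lists did not pass. In AThi 2 of 17 purine, 2 of 13 folate, and 2 of 13 kinase and mitochondrial supply genes were lower in the authors' deposited table. There 1 of 19 breakdown genes was lower, and of 18 in the last list 1 reductase partner was lower and 1 p53 response gene higher. The shares of all genes tested were 1.91% lower and 3.13% higher. The edgeR test called 0 purine genes (4 lower at an unadjusted p below 0.05), 2 folate, 1 kinase and mitochondrial supply and 1 breakdown gene lower. Of the 18 it called 1 lower and 1 higher. For pyrimidine synthesis the count in the authors' deposited table was 0 (3 lower and 0 higher at an unadjusted p below 0.05) and 0 by edgeR (unadjusted 3 and 0).

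The comparison list of 39 other S phase genes, which also holds Ung, had 34 lower and a median log2 fold change of -1.14 in AThi against ATlo in the authors' deposited table, and edgeR called 23 lower. Against young it had 26 of 39 lower in AThi and a median of -0.96 in the authors' deposited table, and edgeR called 14. In ATlo against young 1 was higher and the median was 0.22 in the authors' deposited table. Of all genes tested there, 4.43% were lower in AThi against ATlo, 1.91% lower in AThi against young and 2.37% higher in ATlo against young. The 9 members had medians of -1.17, -0.67 and 0.31 in these comparisons in the authors' deposited table. Mcm5, a subunit of the replicative helicase, averaged 894 ± 136 normalized counts across AThi, 3113 ± 171 across ATlo (SD, n = 3 each) and 2456 ± 148 across young libraries (SD, n = 2). Pola1, the catalytic subunit of polymerase alpha, averaged 3476 ± 355 across AThi, 7657 ± 778 across ATlo (SD, n = 3 each) and 6798 ± 38.9 across young libraries (SD, n = 2). E2f1, a transcription factor of the step from G1 to S phase, averaged 238 ± 46.9 across AThi, 1068 ± 155 across ATlo (SD, n = 3 each) and 853 ± 64.0 across young libraries (SD, n = 2). Among the p53 response genes, the CDK inhibitor Cdkn1a was named after its values were seen. It averaged 345 ± 28.4 across AThi, 437 ± 150 across ATlo (SD, n = 3 each) and 65.4 ± 2.94 across young libraries (SD, n = 2). Cdkn1a was called higher than in young in both old groups. Of its list of 18 genes, 1 was higher and 1 lower in each comparison with young. Shares of all genes were 3.13% higher and 1.91% lower for AThi, and 2.37% and 1.98% for ATlo. The list had median log2 fold changes of -0.30 in AThi and -0.04 in ATlo against young in the authors' deposited table.

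**Figure D4:**
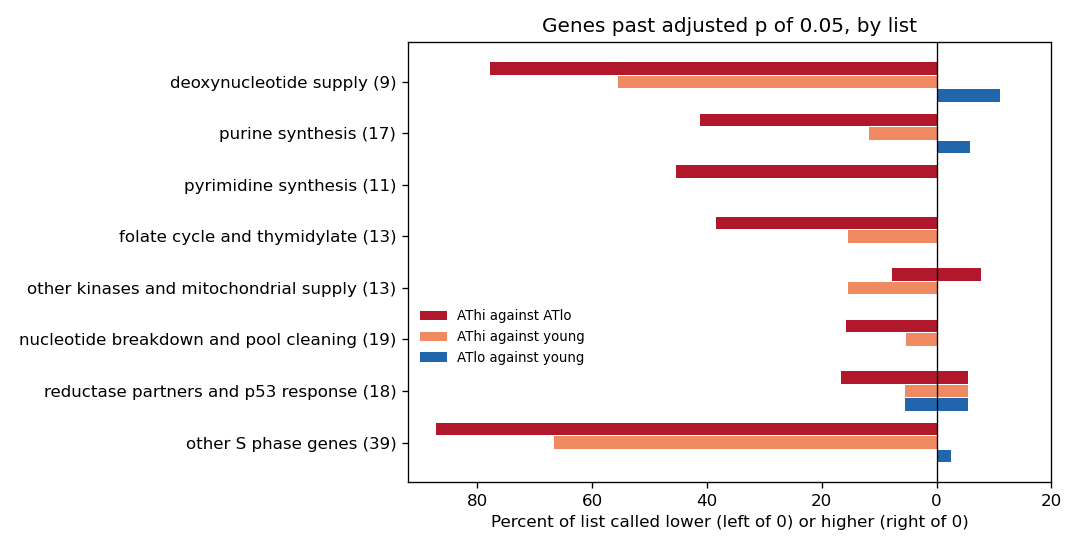
Percent of each gene list past an adjusted p of 0.05 in the authors' deposited tables (horizontal axis), with genes lower in the first-named group left of 0 and higher ones right of 0. The number of genes with an adjusted p stands beside each list, and bars give the 3 comparisons. Deoxynucleotide supply (7 of 9) and other S phase genes (34 of 39) have the longest bars in AThi against ATlo.

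The authors' deposited table of upstream regulators for AThi against ATlo lists, for each of 726 regulators, target genes in their data. Of 399 distinct targets, 382 matched a gene symbol of the contrast table, and 379 of those had a log2 fold change of at least 1 in size. Rrm2 stood among the targets of 65 regulators in the authors' deposited table, Tk1 of 47, Tyms of 46, Rrm1 of 29, Dut of 13 and Dctpp1 of 12. Dck, Rrm2b and Samhd1, whose log2 fold changes were smaller than 1 in size, were named for none. E2F1, ATF3 and STK11 each listed 5 members. E2F1, whose targets included Rrm1, Rrm2, Tk1, Tyms and Dut, had an activation score of -3.99 in the authors' deposited table and was marked inhibited. ATF3 and STK11 had scores of -1.54 and -1.25 in the authors' deposited table, with no state given. These targets were taken from the same contrast, so the scores are no separate evidence on the members.

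Near-identical copies could share reads with 3 members. The pseudogene Tyms-ps had 11.7 to 14.6 normalized counts in AThi, 30.6 to 49.8 in ATlo and 24.9 to 38.0 in young, under 2% of Tyms in every library. The rows Gm6091, a copy of Tk1, and Gm8616, a copy of Rrm2b, had base means of 12.1 and 16.9. The sources used here do not say how reads matching both a gene and its copy were counted.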

How the data were processed

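Bulk RNA of about 10000 HSCs per library was sequenced as paired ends of 50 bases, from cells processed over 2 sort days, per the labels' protocols. The submitters' processing notes name FastQC, MultiQC, STAR, featureCounts, DESeq2 and the build GRCm38. Their versions, the annotation and the strand setting are not stated. The authors' deposited contrast tables hold log2 fold changes with standard errors, a Wald score, p-values and a normalized signal per library, which is a read count divided by 1 factor. Whole reads were recovered from that signal within 0.01 for 100% of values in each library. The authors' deposited regulator table holds a score, a log2 ratio and p-values.

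The main test was the authors' own DESeq2 contrast, called at an adjusted p below 0.05 over all genes tested, because the files hold no raw counts. DESeq2 1.42.0 and edgeR 4.0.16 (R 4.3.3) were run on recovered reads after being tested on simulated data. Alternatives were edgeR, other scaling and filtering, each library left out, the libraries tagged 12 left out, and the shared column tag as a block. Python 3.11.15, numpy 2.4.6, pandas 2.3.3 and matplotlib 3.10.9 gave the summaries. Libraries of a group all differed by more than sampling noise (chi-square per degree of freedom 52.9 to 109). The protocols state that AThi and ATlo cells were paired, and the pairs were read from the column tags. Libraries of the same tag deviated from their group means together (r 0.16 to 0.37 over 13611 genes). Those of unlike tags had r of -0.23 to 0.03, values that taking deviations from a mean of 3 libraries pulls down. These values cannot tell a shared mouse from anything else that libraries of a tag share. Intervals are those of the Wald test.

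The members, the gene lists and the naming rule were chosen with earlier results of these data known. The rule names all members, up to 4 called genes of each list by adjusted p, and the 3 genes most alike for Rrm2, Rrm2b, Dck and Samhd1. Some genes that this rule selects are not reported here. Positions and promoters are RefSeq's on GRCm38.p6.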

Additional observations from a re-analysis of the deposited data

How the results depend on the processing

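For AThi against ATlo, 7 members were called in the deposited table and 6 to 8 under 18 alternatives, with every member keeping its sign. Of the 162 values for single members, 158 kept their side of the threshold. The settings are not all separate checks. The DESeq2 refit gave the deposited values again, and the fits with a low count filter and with no filter gave equal values. Young libraries enter this contrast only through the scaling and the shared spread. With the replicate block the count was 7 by DESeq2 and 6 by edgeR, the same counts as those tools gave without it. Rrm2b had an adjusted p of 0.055 by DESeq2 with the block. No paired analysis was possible for the contrasts with young because the young mice have no partner in the old groups. For AThi against young, 5 members were called in the deposited table, 2 by edgeR, 3 without the libraries tagged 12, and 2 to 5 with 1 library left out. For ATlo against young, 1 was called, 0 by edgeR, and 0 to 2 with 1 library left out. Log2 fold changes that changed sign belonged to members not called. In AThi against young, without the libraries tagged 12, Dck was at 0.02 and Samhd1 at 0.01, and with 1 library left out Samhd1 ranged from -0.14 to 0.13. In ATlo against young, with 1 library left out, Rrm2b ranged from -0.27 to 0.15 and Tyms from -0.17 to 0.43. The cause of these shifts was not tested. Fits without 1 young library leave a lone young sample, assumed to vary like the other groups. Across all genes, edgeR called 280, 240 and 130 genes in the 3 contrasts, against 1414, 961 and 811 in the deposited tables; genes higher were 60, 168 and 93 of these by edgeR, against 621, 596 and 442. With 1 old library left out, the lowest DESeq2 counts in that order of contrasts were 932 without ATlo O11, 740 without AThi O10 and 582 without ATlo O11. Counts were lower still without the libraries tagged 12, a fit that also leaves a lone young sample. The same held without 1 young library in the 2 contrasts with young.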
